A study of Mus musculus with 6 samples.

Results

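The nuclear genes of respiratory complexes II to V were examined in single mouse blastocysts. Their members were taken by name, as the protein-coding genes of the GENCODE M21 annotation whose symbol begins with Uqcr, Cox4 to Cox8 or Atp5, or is Cyc1, Sdha, Sdhb, Sdhc or Sdhd. Of 49 such genes, 43 were among the 12149 genes of the table: 4 of 4 for complex II, 9 of 9 for complex III, 13 of 18 for complex IV and 17 of 18 for complex V. The 6 genes without a row were Cox4i2, Cox6a2, Cox7b2, Cox8b and Cox8c, which are isoforms known from particular tissues, and a second gene model of Atp5o that shares 243 exonic bases with the one that was measured. The rule used no expression values, and measured members were well above the lower limit of the table, with at least 81 reads in every embryo.

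The embryos were of C57BL/6 background and were collected at embryonic day 3.5, about 96 h after small RNAs from sperm had been microinjected into the zygote at 2 ng/µl. In the Dep group (3 embryos) the small RNAs came from males in which stress had induced a depressive state, and in the Ctl group (3 embryos) from normal males, so both groups carry injected sperm RNA and no uninjected embryos are included. Each library was made from 1 whole embryo, and the comparison asks whether the sperm RNA of stressed males alters the transcripts of the early embryo. Which embryos have common parents or were injected together, and how many males gave the RNA, is not in the labels, so p-values measure only the spread between these embryos.

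Complex II (succinate dehydrogenase) passes electrons from succinate to ubiquinone and is also an enzyme of the citric acid cycle. Complex III passes them on to cytochrome c, complex IV (cytochrome c oxidase) hands them to oxygen, and complex V (ATP synthase) uses the proton gradient that complexes III and IV help to build. The subunits of complex II are all encoded in the nucleus, whereas complexes III, IV and V each combine nuclear subunits with a few that mitochondrial DNA encodes, and the blastocyst is a stage at which oxygen use by the mouse embryo is known to increase.

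Between 16543356 and 21548220 reads fell in listed genes per library. Dep 1 was unlike the rest: 691 listed genes had no read in it, against 5 and 23 in Dep 2 and Dep 3 and 10 to 106 in the Ctl embryos. Results are therefore also given without it. The embryos carried markers of the blastocyst lineages. Over 8 of 8 epiblast markers the summed level was 5908 to 12896 normalized counts in Dep and 7099 to 10431 in Ctl, over 9 of 9 trophectoderm markers 42340 to 104764 in Dep and 49168 to 73995 in Ctl, and over 5 of 6 primitive endoderm markers 3141 to 9311 in Dep and 6282 to 7194 in Ctl. Dep 1 had the highest trophectoderm sum and the lowest epiblast and primitive endoderm sums, with Fgf4, Gata4, Sox17 and Sox7 at 0. These sums rest on few genes. Krt8 and Krt18 had 34040 and 47707 counts in Dep 1. That embryo was highest for 5 of 9 trophectoderm markers and lowest for Tfap2c. Of 8 epiblast markers, it was highest for 1, Prdm14. The primitive endoderm sum was mostly Gata6, which had 6402 of 6454 counts in Ctl 3. In Ctl 3, Gata4 was also at 0, Sox17 at 0.883, Sox7 at 9.71 and Pdgfra at 41.5. What part the makeup of Dep 1 or Ctl 3 has in the values below was not tested. None of 7 cumulus cell markers had a row. In such whole-embryo RNA, fewer cells of a type and less RNA per cell cannot be told apart.

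None of the 43 genes passed the test between Dep and Ctl. With limma on log2(normalized count + 1) and adjustment over all genes, 0 members and 0% of the 12149 genes were called at an adjusted p under 0.05, and at an unadjusted p under 0.05 the counts were 0 members and 225 genes, or 1.85%. On recovered reads, edgeR and DESeq2 also called 0 members and gave 0 members an unadjusted p under 0.05. DESeq2 called 1 gene, Ly6a, which is no member. The log2 folds of the members (Dep minus Ctl) lay between -0.42 and 0.42 with standard errors of 0.24 to 0.58, and every adjusted p was 0.9997. Errors given after a log2 fold below are its standard error in this fit. The mean level was higher in Dep for 25 members and lower for 18, a share of 58.1% against 48.2% of all genes. The median log2 fold was 0.07, against -0.02 over all genes, but it was -0.25 without Dep 1, -0.09 without both embryos numbered 1, and -0.13 when libraries were weighted by their quality, so the members as a whole have no direction that holds across these settings.

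**Figure D1:**
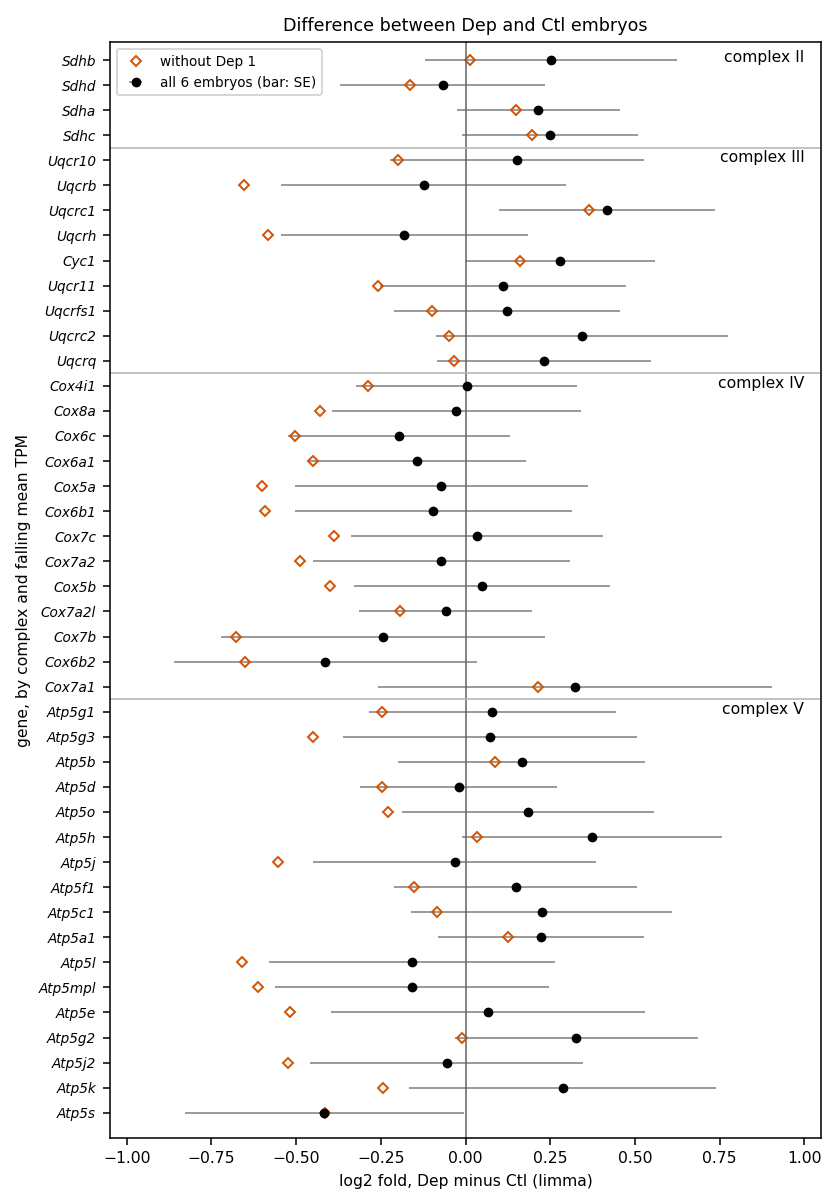
Log2 fold between Dep and Ctl embryos (horizontal axis, Dep minus Ctl) for each of the 43 genes, ordered by complex. Filled points with SE bars use all 6 embryos and lie between -0.42 and 0.42; open diamonds leave out Dep 1, and 34 of them are below 0.

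By complex, the median log2 fold was 0.23 for complex II (3 genes higher in Dep, 1 lower), 0.15 for complex III (7 higher, 2 lower), -0.07 for complex IV (4 higher, 9 lower) and 0.08 for complex V (11 higher, 6 lower). Without Dep 1 the medians were 0.08, -0.10, -0.45 and -0.25 in the same order. Complex IV had 12 of 13 genes lower in Dep without that embryo, complex V 14 of 17, complex III 7 of 9 and complex II 1 of 4. In all, 34 of 43 members were then lower in Dep, against 48.1% of all genes. These counts set Dep 2 and Dep 3 against all Ctl embryos, Ctl 1 included, in which most members were also high. With Dep 1 and Ctl 1 both left out, an alternative chosen after the data were seen, 27 of 43 members were lower in Dep, against 49.1% of all genes, and the medians were 0.21, 0.06, -0.25 and -0.06 for complexes II, III, IV and V. Complex IV still had 12 of 13 genes lower in Dep, and complex V had 11 of 17. No member was called in either setting. With only Dep 1 left out, the unadjusted p of 1 member, Uqcrb, was under 0.05 (log2 fold -0.65, limma, adjusted p = 0.987), against 3.90% of all genes. With both embryos numbered 1 left out, 0 members and 340 of all 12149 genes had an unadjusted limma p under 0.05. In 12 of 43 members (6 of complex IV, 4 of complex V and 2 of complex III) Dep 2 and Dep 3 were both below every Ctl embryo, against 9.90% of all genes. The difference between complexes was not tested.

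The sign of every complex's median depended on single embryos. With 1 embryo left out at a time it ran from -0.003 (without Ctl 3) to 0.29 for complex II, and from -0.10 to 0.36 for complex III, where only leaving out Dep 1 put it below 0. For complex IV it ran from -0.45 to 0.15, with values above 0 without Ctl 1 (0.15), without Dep 2 (0.15) and without Dep 3 (0.13), and it was 0.05 with edgeR and with DESeq2. For complex V it ran from -0.25 to 0.40, with values below 0 without Dep 1 and without Ctl 3 (-0.06), and it was -0.06 with library weights.

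For all members but Sdha, Sdhc and Cox7a1 the spread between embryos was larger than the difference between groups: the standard deviation of a member's log2 level over the 6 embryos was 0.15 to 0.74, with a median of 0.51. Dep 1 held the highest level of 36 of 43 members (83.7%), against 24.3% of all genes. Dep 1 and Ctl 1 were the highest pair for 32 members (74.4%), against 12.2% of all genes. The lowest level was in Dep 2 for 15 members, in Dep 3 for 13, in Ctl 3 for 12 and in Ctl 2 for 3. The median deviation of the members from their own means over the 6 embryos was 0.73, -0.20 and -0.39 in Dep 1, 2 and 3 and 0.30, -0.21 and -0.19 in Ctl 1, 2 and 3 on the log2 scale. Both groups thus contained 1 embryo above and 2 embryos below the mean. Together the 43 genes took 1.81%, 1.29% and 1.11% of the normalized counts in the Dep embryos and 1.47%, 1.32% and 1.10% in the Ctl embryos.

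**Figure D2:**
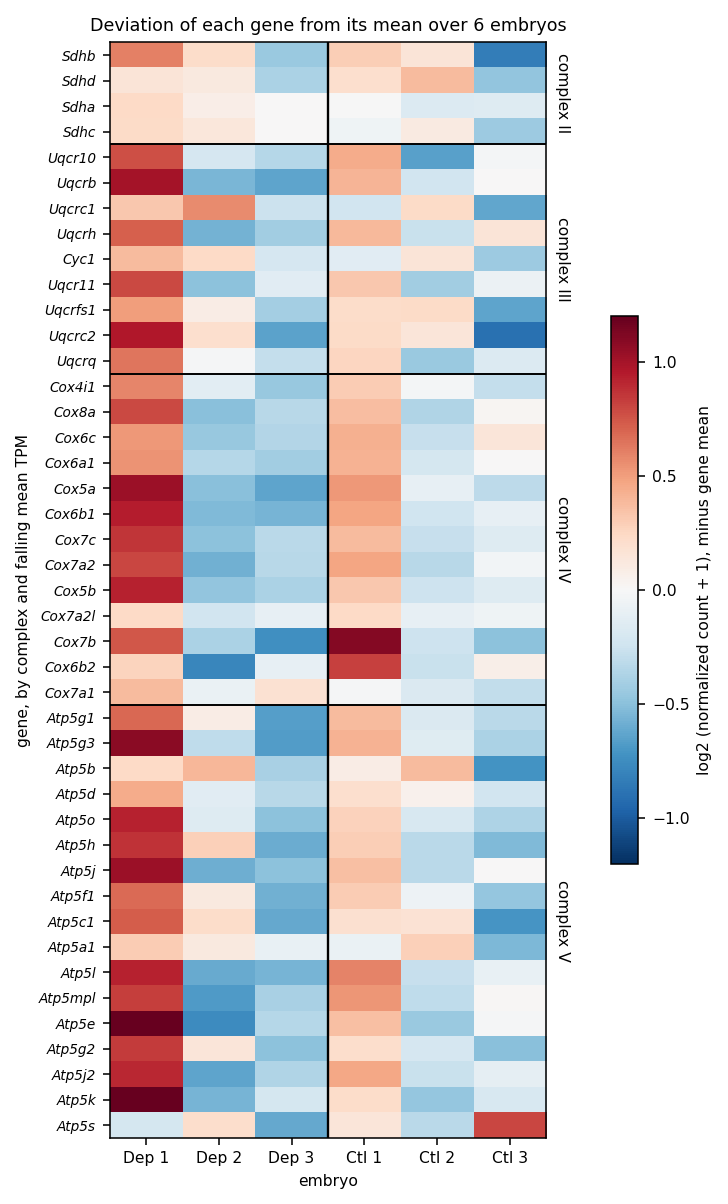
Deviation of each gene (rows, by complex) from its mean over the 6 embryos (columns), in log2 units; red is above the mean and blue below it. The Dep 1 column is highest for 36 of the 43 genes and Ctl 1 is above the mean for most, while several longer genes of complexes II, III and V are lowest in Ctl 3.

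In normalized counts only Sdha had groups that did not overlap, with higher values in Dep, so 1 of 43 members did so against 6.90% of all genes (3.09% higher and 3.80% lower in Dep). Sdha (ENSMUSG00000021577, chr13:74322254-74350280 of GRCm38), the flavoprotein that oxidizes succinate, had 3075, 2759 and 2625 normalized counts in Dep and 2608, 2329 and 2346 in Ctl. Every Dep embryo was above every Ctl embryo, by little: the lowest Dep and the highest Ctl value were nearly equal. The log2 fold was 0.21 ± 0.24 (SE; limma, adjusted p = 0.9997), and 0.15 without Dep 1. Sdha also varied least of all members, with a standard deviation of 0.15 over the 6 embryos on the log2 scale. Per transcript length it stood at 89.1 ± 10.3 TPM (reads per transcript length, scaled to the same sum in every embryo) in Dep and 76.1 ± 2.06 TPM in Ctl (SD, n = 3 each), and on that scale Dep 1 was the lowest Dep embryo, at 78.3 TPM, still above Ctl 2 at 77.8.

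Sdhb, the iron-sulfur subunit of complex II, had 6067, 4627 and 2930 normalized counts in Dep and 4901, 4432 and 2234 in Ctl. Embryo 3 was the lowest of each group, and the groups overlapped. Its log2 fold was 0.25 ± 0.37 (SE), and 0.01 without Dep 1. Sdhc, an anchor of the complex in the inner membrane, had 2785, 2614 and 2383 normalized counts in Dep and 2297, 2561 and 1753 in Ctl, with a log2 fold of 0.25 ± 0.26. Here Ctl 2 lay among the Dep embryos. The other anchor, Sdhd, had 4692, 4566 and 3235 in Dep and 4829, 5472 and 3021 in Ctl and was the single member of complex II with a lower mean log2 level in Dep (log2 fold -0.07). Levels per length differed within the complex: Sdhb and Sdhd had a mean of 328 and 317 TPM over all embryos, Sdha and Sdhc 82.6 and 69.2 TPM.

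In complex III, Uqcrc1, Uqcrc2 and Cyc1 had the largest log2 folds. Uqcrc1 (ENSMUSG00000025651, chr9:108936633-108949623 of GRCm38), a core subunit, had 9721, 11514 and 6531 normalized counts in Dep and 6646, 9137 and 5047 in Ctl. Each Dep embryo was above the Ctl embryo of the same number, but the groups overlapped, since Dep 3 was below Ctl 1 and Ctl 2. Its log2 fold of 0.42 ± 0.32 (SE) had the smallest unadjusted p of all members. The second core subunit, Uqcrc2, had 7197, 4248 and 2363 in Dep and 4328, 4094 and 1992 in Ctl, a log2 fold of 0.34 ± 0.43 that was -0.05 without Dep 1. Embryo 3 was the lowest in both groups. Exons of Uqcrc2 share 504 bases with Pdzd9 on the opposite strand, and as the kit does not mark strand, reads there cannot be told apart.

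Cyc1, the cytochrome c1 that passes electrons to cytochrome c, had 9296, 8426 and 6210 normalized counts in Dep and 6477, 7951 and 5275 in Ctl, with a log2 fold of 0.28 ± 0.28 (SE). Dep 1 and Dep 2 were above all Ctl embryos and Dep 3 was not. Uqcrfs1, the Rieske iron-sulfur protein, averaged 5087 ± 1565 in Dep and 4692 ± 1434 in Ctl (SD, n = 3 each). The 5 small subunits without a redox group, Uqcrb, Uqcrh, Uqcrq, Uqcr10 and Uqcr11, had log2 folds from -0.18 to 0.23. Uqcr10, the most abundant gene of the complex per length, had 9029, 4577 and 4152 normalized counts in Dep and 7175, 3353 and 5201 in Ctl. Dep 1 and Ctl 1 were the top embryos for it, as for all 5 of these small subunits.

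The 10 ubiquitous subunits of complex IV shared a profile across embryos. Dep 1 and Ctl 1 were the 2 highest embryos for all 10, with a median deviation of 0.79, -0.48 and -0.40 in Dep and 0.42, -0.25 and -0.13 in Ctl on the log2 scale. Cox4i1, a subunit to which ATP is known to bind, had the highest level per length of all members, 1474 ± 260.4 TPM in Dep and 1457 ± 196 TPM in Ctl (SD, n = 3 each). It had 17841, 10852 and 8689 normalized counts in Dep and 14667, 11684 and 9745 in Ctl. The Dep range enclosed the Ctl range, and the log2 fold was 0.00 ± 0.33 (SE). Cox6c, a small membrane subunit, had 9275, 4725 and 5062 normalized counts in Dep and 8699, 5337 and 7182 in Ctl. Dep 2 and Dep 3 were below every Ctl embryo and Dep 1 above them, and the log2 fold was -0.20 ± 0.33. The other small subunits that surround the catalytic core, Cox5a, Cox5b, Cox6a1, Cox6b1, Cox7c and Cox8a, had log2 folds from -0.14 to 0.05, and from -0.60 to -0.39 without Dep 1. Exons of Cox6c share 250 bases with Vps13b on the other strand, and those of Cox4i1 share 154 with Emc8.

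Cox7b, the X-linked member, had the largest spread over embryos, a standard deviation of 0.74 on the log2 scale. It had 3022, 1390 and 1086 normalized counts in Dep and 3872, 1520 and 1287 in Ctl. In each group, embryo 1 held more than the other embryos of that group combined, and the log2 fold was -0.24 ± 0.48 (SE). Cox6b2, an isoform known from testis, was present at 420, 203 and 326 normalized counts in Dep and 618, 290 and 368 in Ctl (log2 fold -0.41 ± 0.45). Ctl 1 was the highest and Dep 2 the lowest embryo. Cox7a1, an isoform known from heart and muscle, had the fewest reads of the members and averaged 109 ± 17.5 normalized counts in Dep and 86.8 ± 8.69 in Ctl (SD, n = 3 each). Its groups overlapped in normalized counts. In TPM, Dep had 23.7, 22.1 and 30.6 and Ctl 20.0, 21.2 and 18.9, without overlap. How many of all genes separate on that scale was not counted, and Cox7a1 was not among the genes picked by rule for full values. Its ubiquitous counterpart Cox7a2 averaged 4090 ± 2236 in Dep and 4032 ± 1165 in Ctl. Cox7a2l, a factor studied in the joining of complexes III and IV, varied little, at 3930 ± 679 in Dep and 4076 ± 539 in Ctl. Whether it has that role in embryos of this strain was not examined.

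**Figure D3:**
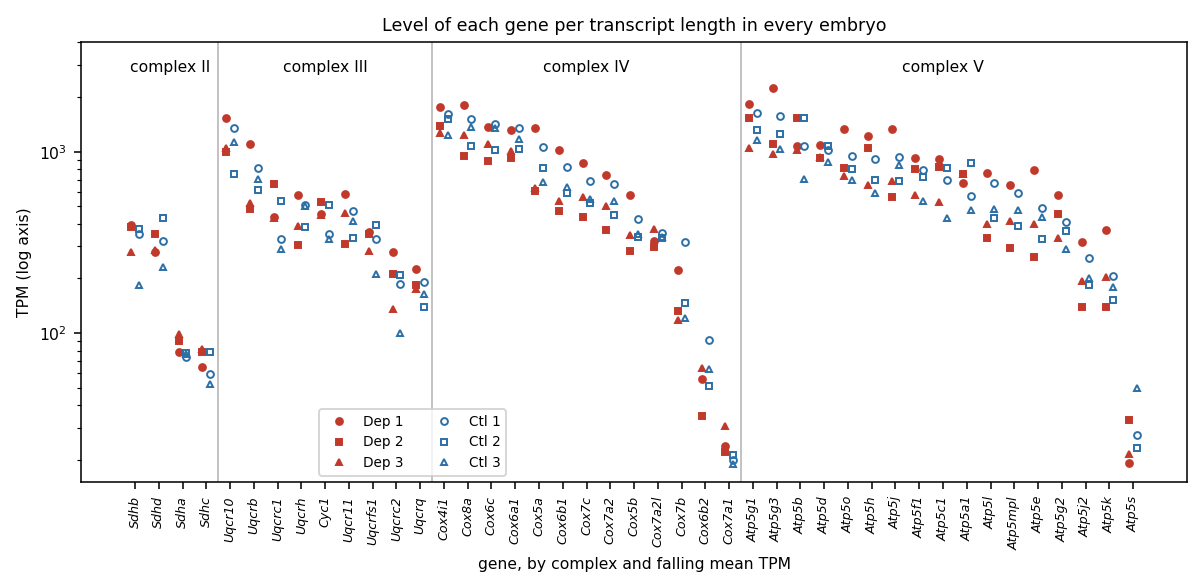
Level of each gene in TPM (log axis) in the 3 Dep embryos (filled) and the 3 Ctl embryos (open), ordered by complex. Mean levels run from 22.8 TPM for Cox7a1 to 1466 TPM for Cox4i1, and Dep and Ctl points intermingle for nearly every gene.

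In ATP synthase, the genes of the catalytic head had the highest counts. Atp5b, the catalytic beta subunit, had 27755, 30877 and 17900 normalized counts in Dep and 24974, 30477 and 14258 in Ctl, a log2 fold of 0.17 ± 0.36 (SE). Embryo 2 was the highest and embryo 3 the lowest of each group, an order unlike that of the small subunits. Atp5a1, the alpha subunit, had 22453, 19708 and 17000 in Dep and 17188, 22122 and 12451 in Ctl (log2 fold 0.22 ± 0.30). Of the central stalk, Atp5c1 (gamma), Atp5d (delta) and Atp5e (epsilon) had log2 folds of 0.22, -0.02 and 0.07. Atp5e had the largest spread in the complex, with 4511, 1161 and 1545 normalized counts in Dep and 2516, 1442 and 1943 in Ctl. Dep 1 lay far above the rest, and Dep 2 was the lowest embryo. The log2 fold of Atp5e was 0.07 ± 0.46 with all embryos and -0.52 without Dep 1.

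The peripheral stalk, which holds the head still against the turning ring, is formed by Atp5f1, Atp5h, Atp5j and Atp5o, with log2 folds from -0.03 to 0.37. Atp5h, its d subunit, had 10324, 6915 and 3738 normalized counts in Dep and 6932, 4512 and 3926 in Ctl. Dep 1 was the highest and Dep 3 the lowest of all 6 embryos, so that the Dep values enclosed the Ctl values. The log2 fold was 0.37 ± 0.38 (SE), 0.03 without Dep 1, and 0.77 without Dep 3, where the unadjusted p was under 0.05 and the adjusted p 0.838 (limma). In that setting 1 of 43 members had an unadjusted p under 0.05, against 576 of all 12149 genes. Exons of Atp5j share 397 bases with Gabpa, and those of Atp5f1 share 337 with Wdr77, each on the opposite strand. The small membrane subunits Atp5j2, Atp5k, Atp5l and Atp5mpl had a median log2 fold of -0.11, and -0.57 without Dep 1. Atp5s, known as coupling factor B, had a profile of its own, with 387, 519 and 292 normalized counts in Dep and 498, 358 and 785 in Ctl. Ctl 3 was the highest embryo for it, which held for no other member (log2 fold -0.42 ± 0.41).

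The membrane ring of ATP synthase is built of c subunits, which Atp5g1, Atp5g2 and Atp5g3 encode as the same mature protein behind different import sequences. A stretch of 120 coding bases from each is shown because the 3 messages can be told apart in it by single-base differences. Capitals mark the 29 positions at which the 3 genes are not all alike (GENCODE M21, GRCm38, coding strand).
Atp5g1: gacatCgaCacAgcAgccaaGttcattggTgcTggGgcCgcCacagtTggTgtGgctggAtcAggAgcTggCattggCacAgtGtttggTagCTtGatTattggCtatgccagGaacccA
Atp5g2: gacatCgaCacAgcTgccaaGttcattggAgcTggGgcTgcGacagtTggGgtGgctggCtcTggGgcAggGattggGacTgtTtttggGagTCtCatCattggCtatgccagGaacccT
Atp5g3: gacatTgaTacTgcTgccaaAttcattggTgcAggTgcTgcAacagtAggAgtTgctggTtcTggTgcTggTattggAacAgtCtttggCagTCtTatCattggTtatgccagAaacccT
Over the last 228 coding bases, Atp5g1 and Atp5g2 were identical at 194 positions (85.1%), Atp5g1 and Atp5g3 at 182 (79.8%) and Atp5g2 and Atp5g3 at 179 (78.5%). Reads that span few of these positions could be assigned to the wrong gene, and the share of such reads is not known.

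Atp5g1, on chromosome 11, had 14724, 9667 and 5757 normalized counts in Dep and 11821, 8077 and 7283 in Ctl (log2 fold 0.08 ± 0.36, SE). Atp5g2, on chromosome 15, had 5688, 3509 and 2249 in Dep and 3668, 2764 and 2242 in Ctl (0.33 ± 0.36). Atp5g3, on chromosome 2, had 21614, 8255 and 6391 in Dep and 13606, 9211 and 7820 in Ctl (0.07 ± 0.43). Embryo 1 was the highest and embryo 3 the lowest of its group for all 3 genes. Of the c subunit transcripts counted as TPM, Atp5g1 supplied 39.4%, 49.8% and 44.5% in Dep and 45.2%, 44.8% and 46.6% in Ctl, and Atp5g3 supplied 48.2%, 35.5% and 41.3% in Dep and 43.4%, 42.7% and 41.7% in Ctl. Atp5g2 supplied 12.4% to 14.7% in Dep and 11.4% to 12.5% in Ctl. On this scale Atp5g1 led in every embryo but Dep 1, where Atp5g3 led. By reads, not scaled for length, Atp5g3 led in every embryo but Dep 2, with 51.4%, 38.5% and 44.4% in Dep and 46.8%, 45.9% and 45.1% in Ctl, against 35.0%, 45.1% and 40.0% in Dep and 40.6%, 40.3% and 42.0% in Ctl for Atp5g1. Which gene led thus depended on the scaling. The shares rest on the transcript chosen, since annotated Atp5g1 transcripts of equal rank run from 596 to 4715 bases.

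The members have short transcripts, with a median of 745 bases against 2740 over all listed genes, and embryos also differed by transcript length in the rest of the table. Among other genes of 500 to 1000 bases (884 genes), the median deviation on the log2 scale was 0.45, -0.05 and -0.26 in Dep 1, 2 and 3 and 0.24, -0.20 and -0.03 in Ctl 1, 2 and 3. For the 21 members of that length it was 0.86, -0.49 and -0.45 in Dep and 0.38, -0.25 and -0.10 in Ctl. Both sets had their highest values in Dep 1 and Ctl 1. Among other genes of 4000 bases and over (3283 genes), Dep 1 was instead the lowest embryo, at -0.18. The 13 members of 1000 to 2000 bases had a different order, 0.50, 0.20 and -0.41 in Dep and 0.22, 0.15 and -0.49 in Ctl, with embryo 3 lowest in both groups.

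After the trend with transcript length was removed from each library, an alternative chosen after the data were seen, the members' median log2 fold was -0.00, with 21 of 43 higher in Dep against 47.0% of all genes. The median deviations were then 0.35, -0.17 and -0.15 in Dep and 0.16, 0.03 and -0.17 in Ctl. Dep 1 remained the highest embryo by this measure. What part transcript length or RNA quality has in the profile of the members was not tested.

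**Figure D4:**
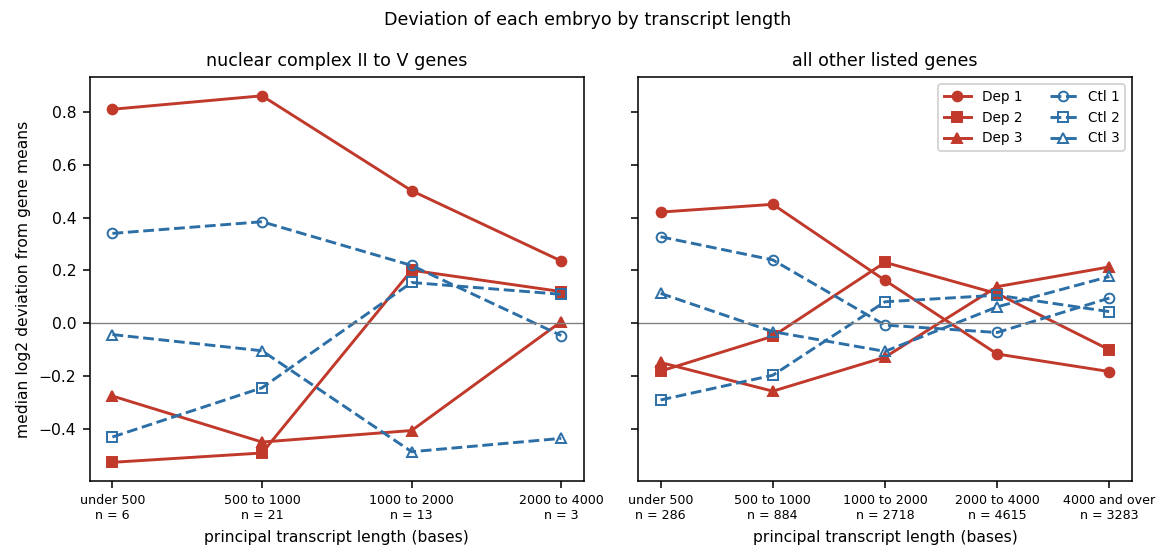
Median log2 deviation of each embryo from the gene means, by length of the principal transcript in bases, for the nuclear complex II to V genes (left) and all other listed genes (right); Dep embryos have filled symbols, Ctl embryos open ones. Dep 1 and Ctl 1 are highest among genes of 500 to 1000 bases in both panels, at 0.86 and 0.38 for the members and 0.45 and 0.24 for the others.

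Because many members varied together across embryos, their promoters were searched for the motifs of 3 factors known to act on respiratory genes. The 250 bases before the RefSeq start (GRCm38.p6) were available for 32 of the 43 members and for 9075 listed genes, and both strands were read. The NRF1 motif, which is GCGCA, any base (N) and GCGC, was in 6 member promoters (18.8%), against 9.01% of all. The GABP motif CCGGAAG was in 8 (25.0%), against 15.3%, and the YY1 motif AAGATGGC in 0, against 2.26%. Matches of different motifs did not overlap. NRF1 and GABP motifs occurred together in 3 member promoters (9.38%), against 1.52% of all. A match is a run of letters and no evidence of binding, and no test was made of these shares.

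The promoter of Sdha is shown as the one with the most NRF1 matches, and those of Sdhd, Cox6a1 and Atp5h as the 3 that hold both motifs. Each reads 5′ to 3′ on the strand of the gene and ends at the base before the start, with motif letters in capitals. They lie at chr13:74350241-74350490, chr9:50603850-50604099, chr5:115348959-115349208 and chr11:115419920-115420169 of GRCm38, all on the minus strand.
Sdha: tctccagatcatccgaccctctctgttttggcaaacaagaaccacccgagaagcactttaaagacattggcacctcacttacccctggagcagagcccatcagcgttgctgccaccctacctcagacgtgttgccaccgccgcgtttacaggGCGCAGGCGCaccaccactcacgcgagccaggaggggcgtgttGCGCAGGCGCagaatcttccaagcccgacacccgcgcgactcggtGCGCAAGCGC
Sdhd: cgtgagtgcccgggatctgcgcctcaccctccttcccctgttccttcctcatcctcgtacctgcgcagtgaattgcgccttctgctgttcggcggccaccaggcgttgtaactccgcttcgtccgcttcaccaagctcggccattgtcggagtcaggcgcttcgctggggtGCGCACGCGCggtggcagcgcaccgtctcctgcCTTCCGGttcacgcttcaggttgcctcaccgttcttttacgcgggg
Cox6a1: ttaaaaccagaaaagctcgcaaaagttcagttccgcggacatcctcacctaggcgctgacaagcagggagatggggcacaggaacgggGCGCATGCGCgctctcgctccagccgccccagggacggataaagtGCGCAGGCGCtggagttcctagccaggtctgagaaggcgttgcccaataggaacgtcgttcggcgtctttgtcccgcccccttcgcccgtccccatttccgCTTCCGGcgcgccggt
Atp5h: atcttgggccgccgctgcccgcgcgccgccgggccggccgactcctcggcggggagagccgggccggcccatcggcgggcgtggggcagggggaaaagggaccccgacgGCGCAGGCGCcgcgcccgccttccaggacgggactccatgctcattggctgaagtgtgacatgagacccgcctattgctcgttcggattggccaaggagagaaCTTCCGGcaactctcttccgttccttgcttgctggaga
Positions are counted from the RefSeq start. As annotated in GENCODE M21, the genes Sdha, Cox6a1 and Atp5h begin before that start. The match nearest the start in each (at 10, 16 and 38 bases) therefore lies within the GENCODE gene. In Sdha the NRF1 matches begin 98, 55 and 10 bases before the start. In Sdhd an NRF1 match begins 79 and a GABP match 46 bases before it, in Cox6a1 NRF1 matches 162 and 117 and a GABP match 16 bases, and in Atp5h an NRF1 match 141 and a GABP match 38 bases before it. The 4 genes did not share a profile: Dep 1 was the highest embryo for Sdha, Cox6a1 and Atp5h and Ctl 2 for Sdhd, and the lowest was Ctl 2 for Sdha, Ctl 3 for Sdhd and Dep 3 for Cox6a1 and Atp5h.

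The genes that encode the factors themselves, their coactivators and the mitochondrial transcription machinery showed no call. Of 11 measured on a list of 12, 2 had a higher and 9 a lower mean level in Dep. The median of their log2 folds was -0.13 (0.03 without Dep 1). Nrf1 had a log2 fold of -0.13, Gabpa -0.20, Yy1 -0.34 and Tfam, which packages mitochondrial DNA, -0.31. Carriers of ATP, ADP and phosphate and proteins of the cristae and outer membrane had a median of 0.12 (6 of 8 higher), and -0.14 without Dep 1.

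Assembly factors of complexes II to V, which insert cofactors and join subunits, were measured for 35 of 38 genes on a list. Of these 30 had a higher mean level in Dep and 5 a lower one (85.7% higher, against 48.2% of all genes), with a median log2 fold of 0.13. Without Dep 1 the split was 19 higher and 16 lower and the median 0.02, and without both embryos numbered 1 it was 20 higher and 15 lower with a median of 0.05. With 1 embryo left out at a time the median ran from 0.02 to 0.34 and was 0.05 without Ctl 2. It was 0.06 with library weights and 0.07 with the length trend removed. Adjusted over all genes, 0 were called by limma. At an unadjusted p under 0.05 there was 1 of 35, Bcs1l, against 1.85% of all genes, and 2 of 35, Bcs1l and Cox10, had groups that did not overlap, against 6.90% of all genes. Bcs1l, the AAA protein that inserts the Rieske protein Uqcrfs1 into complex III, had 834, 247 and 524 normalized counts in Dep and 208, 132 and 143 in Ctl. Every Dep embryo was above every Ctl embryo, with the Dep embryos spread widely. The log2 fold was 1.59 ± 0.51 (SE; limma, adjusted p = 0.9997) and 1.18 without Dep 1.

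Cox10, which makes heme O for the heme a of complex IV, had 1996, 2649 and 1726 normalized counts in Dep and 1613, 1261 and 1512 in Ctl. The groups did not overlap, and the log2 fold was 0.52 ± 0.28 (SE; limma, adjusted p = 0.9997), and 0.56 without Dep 1. Uqcc1, an assembly factor of complex III, had 1235, 1699 and 1823 in Dep and 1095, 1522 and 888 in Ctl (log2 fold 0.46 ± 0.31), with overlapping groups. Cox18, which helps insert a mitochondrially made subunit of complex IV into the membrane, had 6777, 4092 and 4564 in Dep and 3458, 3816 and 4318 in Ctl (0.38 ± 0.27), with Dep 1 well above the rest. The client of Bcs1l, Uqcrfs1, had a log2 fold of 0.12 ± 0.33.

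The subunits that mitochondrial DNA adds to complexes III to V had lower means in Dep for 6 of 6 genes, a median of -0.65 on the log2 scale and no call (limma, adjusted p = 0.9997 for each). With 1 embryo left out at a time that median ran from -1.06 (without Ctl 2) to -0.43 (without Ctl 1). In normalized counts 1 of the 6, mt-Co1, had groups that did not overlap, against 6.90% of all genes. It was lower in Dep, with a log2 fold of -0.63 ± 0.42 (SE). The ratio of mitochondrially encoded to nuclear TPM within complex III was 2.19, 2.87 and 3.79 in Dep and 5.08, 3.72 and 6.59 in Ctl. Dep 3 was just above Ctl 2, and the other Dep embryos were below every Ctl embryo. In complex IV the ratio was 0.711, 1.49 and 1.78 in Dep and 1.66, 1.54 and 2.28 in Ctl, again with Dep 3 among the Ctl embryos. Counts differed widely among the 6 mitochondrial genes. In Ctl 1, mt-Cytb had 321380 and mt-Co1 290290 normalized counts, but mt-Co3 had 10110, mt-Atp6 8027, mt-Co2 5479 and mt-Atp8 374. The complex IV ratio thus rests mostly on mt-Co1. Whether this gap reflects transcript levels or the way reads were counted was not tested. In complex V, nuclear TPM far exceeded the TPM counted for mt-Atp6 and mt-Atp8. The ratio there was 0.0257, 0.0381 and 0.0592 in Dep and 0.0874, 0.0372 and 0.132 in Ctl. Dep 2 and Dep 3 were there above Ctl 2, and Dep 1 was the lowest embryo. Mitochondrially encoded transcripts took 3.71%, 3.05% and 4.003% of reads in Dep and 7.02%, 3.85% and 7.04% in Ctl. Cycs, the mobile cytochrome c between complexes III and IV, had 6248, 2582 and 2338 normalized counts in Dep and 5832, 3355 and 3931 in Ctl (log2 fold -0.34 ± 0.39, SE). Dep 1 and Ctl 1 were its highest embryos, as for most members.

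**Figure D5:**
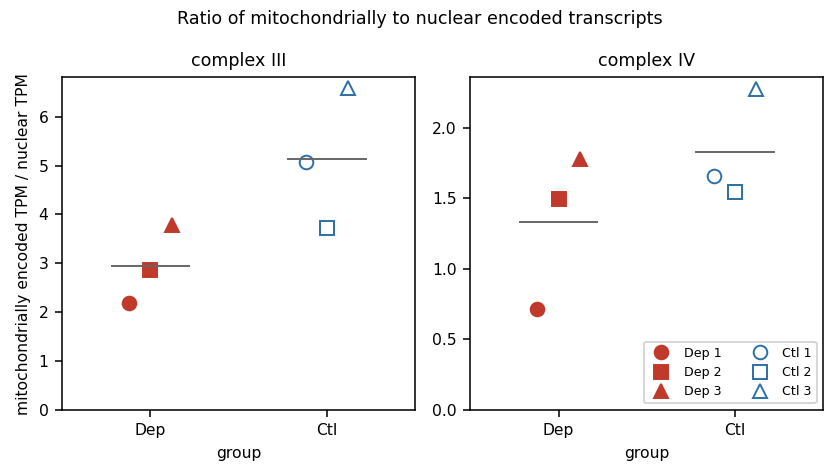
Ratio of summed mitochondrially encoded TPM to summed nuclear TPM for complex III (left) and complex IV (right) in each Dep and Ctl embryo; horizontal lines are group means. For complex III, Dep embryos lie at 2.19 to 3.79 and Ctl embryos at 3.72 to 6.59, with Dep 3 and Ctl 2 nearly level.

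Genes named as nuclear subunits of complex I, the other entry point of electrons, had a like profile. Of these, 26 of 37 were higher in Dep and the median log2 fold was 0.10. Without Dep 1, 33 were lower with a median of -0.25. The list was taken by symbol and includes Ndufa4, which is known as a subunit of complex IV despite its name. Its log2 fold was -0.23, and -0.64 without Dep 1. Dep 1 was the highest embryo for 32 of the 37 (86.5%), against 36 of 43 (83.7%) for complexes II to V and 24.3% of all genes. No member of either set was called.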

How the data were processed

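RNA of 6 single blastocysts was reverse transcribed with the SMART-Seq v4 kit, per the labels' protocols. HISAT2, Cufflinks 2.2.1 and the build mm10 are named, with no role, per the submitters' processing notes. How reads were counted, and on which annotation, is not given in the sources used here. Each deposited signal value is, per its values, a normalized count: each library's read counts over a single size factor. Further columns, per the file headers, are the authors' log2 fold, its error, a test score and raw and adjusted p-values, and were not used here. In every library the lowest values were multiples of 1 step, which turned 100% of values into whole reads (tolerance 0.01). The step of Dep 2, 0.993, is so close to 1 that it was taken as a size factor only by likeness to the other columns. Genes with a mean under 14.2 normalized counts are not in the table. Reads carry no molecular identifiers and are not independent molecules.

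Gene names came from GENCODE M21 (GRCm38, the assembly that mm10 names): 11829 of 12149 identifiers matched and 320 did not. TPM was computed from recovered reads and the length of 1 principal transcript per gene. The test was limma 3.58.1 with a mean-variance trend on log2(normalized count + 1), Dep minus Ctl, over all listed genes, with Benjamini-Hochberg adjustment and a threshold of 0.05; folds of low genes are understated on this scale. The script was first tested on simulated data with known folds, all larger than that of any member. That test does not cover differences of the size seen here. edgeR 4.0.16 and DESeq2 1.42.0 on recovered reads, other pseudocounts (0.5 and 10), a minimum mean of 100, TMM, scaling to nuclear reads, quantile normalization, FPKM, library weights, no trend, a replicate block and each embryo left out were alternatives; removal of the length trend and leaving out Dep 1 and Ctl 1 together were chosen with the data already seen. Versions were R 4.3.3 and Python 3.11.15.

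Across genes, embryos of the same number deviated together from their group means (r = 0.133, 0.151 and 0.129), which met the criterion for pairing (r over 0.1 for each pair); this comes from the check and not from the labels. The results given are from the fit without the block, so their standard errors and p-values leave this pairing out. The fit with the replicate block is an alternative. The members and lists were chosen with earlier results of these data known. Given in full were, for each complex, the member of highest level per length (TPM in place of the FPKM first written), the 2 of smallest p and the one of largest spread, the 3 c subunit genes and the 4 assembly factors of smallest p; Sdhd, Atp5b, Atp5a1, Cycs and Ly6a were added after their values were seen.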

Additional observations from a re-analysis of the deposited data

How the results depend on the processing

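No member was called under any alternative run. DESeq2 called 1 gene, against 0 by limma and edgeR. The count of members higher in Dep was 25 with all embryos, 16 with library weights and also 16 with both embryos numbered 1 left out. With 1 embryo left out it ran from 9 (without Dep 1) to 39 (without Ctl 1), and was 14 without Ctl 3. The members' median log2 fold ran from -0.25 to 0.25 over the embryos left out and from -0.13 to 0.14 over the other alternatives. A fit with the replicate number as a block again called 0 members: the smallest p was 0.0506 (Uqcrc1, adjusted p = 0.941), and it changed no other call. The median unadjusted limma p over members was 0.507 with the block, against 0.687 without it. For Atp5s and Cox7a1 the p was slightly larger with the block. Of all genes, 420 were under 0.05 with the block, against 225 without it.

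The log2 fold changed sign in other settings for genes near 0. Cox4i1 was at -0.035 with scaling to nuclear reads, -0.10 with quantile normalization, -0.13 with library weights, -0.073 with the length trend removed and -0.14 with both embryos numbered 1 left out. Atp5g3 was at -0.0022, -0.19 and -0.00070 with quantile normalization, library weights and the length trend removed, and at -0.22 without both embryos numbered 1. Atp5e was at -0.0041 with quantile normalization and -0.31 with library weights, and Atp5g1 at -0.0068 with library weights. Without both embryos numbered 1, Atp5e was at -0.32 and Atp5g1 at -0.040. With 1 embryo left out, the folds ran from -0.10 to 0.54 for Sdhb, -0.20 to 0.41 for Uqcr10, -0.050 to 0.75 for Uqcrc2, -0.29 to 0.23 for Cox4i1, -0.68 to 0.25 for Cox7b, -0.25 to 0.43 for Atp5g1, -0.012 to 0.66 for Atp5g2, -0.45 to 0.43 for Atp5g3 and -0.52 to 0.46 for Atp5e. The cause was not tested. The folds of Sdha, Sdhc, Uqcrc1, Cyc1, Cox6c, Cox6b2, Atp5h and Atp5s kept their sign in every setting run. These genes were picked for the smallest p in their complex in the same data, so they do not stand for the members as a whole. Only the members picked by rule for full values were followed through every setting. How many of all members kept their sign was not counted. With 3 embryos a group and standard errors of 0.24 to 0.58 in the fit without the block, differences of the size seen here could not be told from 0.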
